A study of Mus musculus with 18 samples.

Results

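The contralateral tissue of Trem2-knockout mice was compared with that of wild-type mice 7 days after a cortical stroke, to measure the genotype difference on the side of the brain that was not lesioned. The 6 libraries were chosen by their labels, 3 from knockout and 3 from wild-type mice, out of 18 libraries in the series. All mice were male, 8 to 10 weeks old and on a C57Bl6 background, and every mouse, the wild types included, had received 50 mg/kg of the dye Rose Bengal and a 125 mW laser at 525 nm over a circle of 3 mm, which closes the cortical vessels under the light (photothrombosis). No group was free of stroke, so the contralateral tissue is the spared side of an injured brain. Brains were stained with TTC, which leaves dead tissue pale, to guide the dissection. The labels give neither how the knockout was made, nor the substrain of either genotype, nor whether the libraries of a group came from separate animals, and p-values therefore reflect the spread among 3 libraries, part of which may be technical.

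TREM2 is a receptor for lipids, lipoproteins and cell debris on microglia, the resident macrophages of the brain. It has no signalling tail of its own and signals through the adaptor TYROBP and the kinase SYK. In mouse models of plaque deposition and demyelination, microglia without it largely fail to pass from the homeostatic state, marked by P2ry12 and Tmem119, to the disease-associated state, marked by Clec7a, Itgax, Cst7 and Spp1.

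The total of the 6 libraries ranged from 16993978 to 17608255 counts, with 16720 to 16924 genes detected, so no library was shallow. The tissue carried cortical markers in every library. Slc17a7, the vesicular glutamate transporter of cortical excitatory neurons, had 890, 1166 and 960 CPM (read counts scaled to library size) in knockout tissue, against 898, 1150 and 1271 CPM in wild-type tissue. The mean level of 19 excitatory cortical layer markers, as log2 CPM centred on the 6 libraries, lay between -0.037 and 0.058 in all of them. Single markers were less even, with log2 differences of knockout minus wild type from -0.46 to 0.70. At an unadjusted p under 0.05 (edgeR) 3 of the 19 were lower (15.8%, all genes 6.16%) and 2 higher (10.5%, all genes 4.5%). The mean levels of markers of other brain regions did not lie as close together.

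Choroid plexus, the ventricular tissue that makes cerebrospinal fluid, was most visible in both libraries numbered 2. Ttr, the thyroid hormone carrier that this tissue makes in very large amounts, had 2.68, 2158 and 29.5 CPM in knockout libraries 1 to 3, against 2.50, 227 and 8.98 CPM in wild-type libraries 1 to 3. Kl, the ageing-related hormone co-receptor klotho, had 5.95, 102 and 8.68 CPM in knockout tissue, against 5.0, 19.5 and 2.68 CPM in wild-type tissue. Knockout library 2 was thus the highest for both genes and wild-type library 2 the second highest, and among the remaining libraries the genotypes overlapped for Ttr but not for Kl. The 20 listed choroid plexus genes summed to 305, 4238 and 384 CPM in knockout tissue, against 387, 745 and 395 CPM in wild-type tissue. Lmx1a was at 0 in some libraries and no marker was at 0 in all 6. Among the 16 markers that passed the filter on low counts, the median log2 difference of knockout minus wild type was 2.33, but -0.28 without knockout library 2 and, over 13 tested markers, 0.34 without both libraries numbered 2. None of the 16 passed the test, and the leading ones by p, Sostdc1 (2.69 ± 1.33), Col8a1 (1.21 ± 0.65), Clic6 (2.71 ± 1.43) and the prolactin receptor Prlr (2.25 ± 1.27), had wide errors (SE) and were each highest in knockout library 2. The cilium genes of the ependyma, which lines the ventricles, summed to 89.1, 165 and 87.8 CPM in knockout tissue, against 52.4, 117 and 65.5 CPM in wild-type tissue. These sums were highest in the libraries numbered 2 of each genotype. All 18 genes lay above 0, with a median of 0.58, and 3 were higher at an unadjusted p under 0.05 (edgeR, 16.7%, all genes 4.5%). The median was 0.21 without knockout library 2, with 0 higher. Without both libraries numbered 2 it was 0.66, with 10 higher (all genes 3.92%).

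Markers of the projection neurons of the striatum, which lies under the cortex, separated the libraries numbered 1. Drd2, the dopamine D2 receptor, had 33.9, 11.3 and 17.1 CPM in knockout libraries 1 to 3, against 5.96, 13.5 and 9.74 CPM in wild-type libraries 1 to 3. Adora2a, an adenosine receptor of the same neurons, had 45, 13.7 and 20.3 CPM in knockout tissue, against 1.99, 16 and 12.2 CPM in wild-type tissue. For both genes knockout library 1 was the highest of all and wild-type library 1 the lowest, and the other libraries overlapped. Over the 20 listed striatal genes the sums were 2000, 1077 and 1265 CPM in knockout tissue, against 588, 1153 and 1060 CPM in wild-type tissue. The median log2 difference of the 19 tested was 0.82, and 4 were higher at an unadjusted p under 0.05 (edgeR, 21.1%, all genes 4.5%), 0 lower. Without both libraries numbered 1 the median was 0.10, with 2 higher and 1 lower. Without both numbered 2 it was 1.27, with 9 higher and 0 lower. Of these 19, none passed the test with edgeR and Pdyn alone did with DESeq2. Pdyn, the precursor of the opioid peptide dynorphin, had the smallest p (0.78 ± 0.22, edgeR adjusted p = 0.404), and the G protein subunit Gng7 stood at 0.82 ± 0.30. Hippocampal markers summed to 563, 682 and 665 CPM in knockout tissue, against 411, 703 and 412 CPM in wild-type tissue. Of 13 tested 12 lay above 0, with a median of 0.67. At an unadjusted p under 0.05, 2 were higher (edgeR, 15.4%, all genes 4.5%) and 0 lower. The count of higher ones was 6 without wild-type library 2 (all genes 4.66%) and 1 or 2 without any other single library. Marker levels of neighbouring regions were thus unequal from library to library, and some of the results below are also given without both libraries numbered 1 or both numbered 2.

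**Figure D1:**
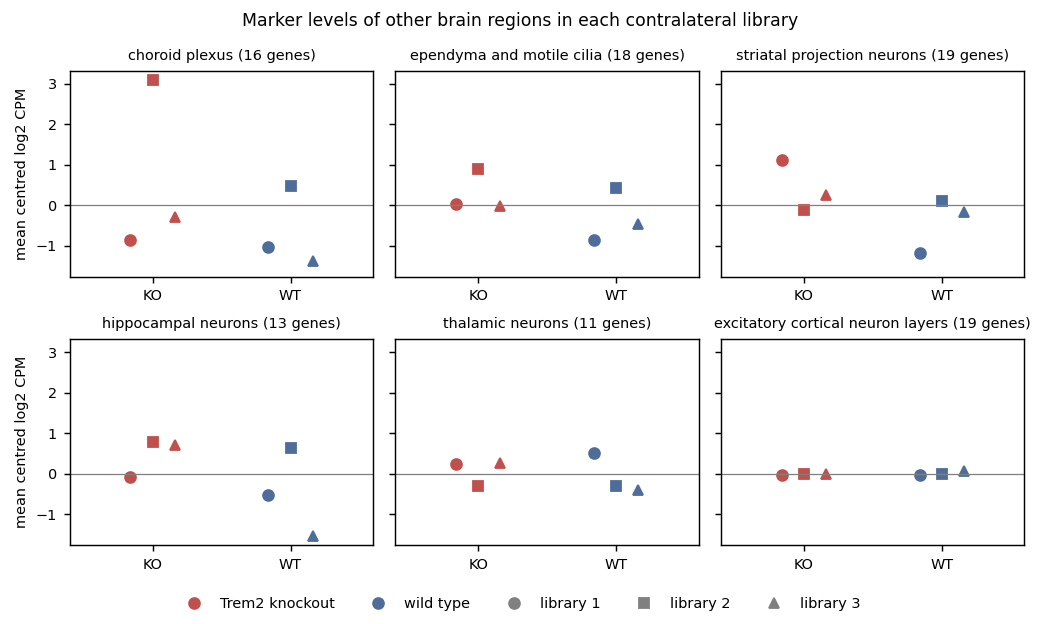
Mean level of marker genes of 6 brain tissues or cell types in each contralateral library, as log2 CPM centred on the 6 libraries (vertical axis), with Trem2 knockout left of wild type and the library number as the symbol. Choroid plexus markers stood at 3.09 in knockout library 2 and striatal markers at 1.11 in knockout library 1 and -1.18 in wild-type library 1, while cortical layer markers stayed near 0.

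The targeted gene served to check the genotype labels. Trem2 had 0.700, 0.923 and 0.345 CPM in knockout tissue, from 12, 16 and 6 counts, against 28.0, 20.8 and 27.8 CPM in wild-type tissue, from 494, 350 and 476 counts. No knockout library came near a wild-type one, and the knockout mean of 0.656 ± 0.292 CPM (SD, n = 3) was 2.57% of the wild-type mean of 25.5 ± 4.12 CPM (SD, n = 3). Trem2 fell by 5.27 ± 0.26 on the log2 scale (edgeR quasi-likelihood test, Benjamini-Hochberg adjusted p = 0.000361 over 14578 genes). The exact 2-sided permutation p was 0.1, the smallest that 20 arrangements of 3 against 3 can give. The call was kept when any 1 library was left out, with log2 differences of -5.60 to -4.96, but was lost without both libraries numbered 1, where the difference was -5.24 and the adjusted p 0.071.

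Of 14578 genes tested 2 were called at an adjusted p under 0.05, a background of 0.0137%: Trem2 and 1 gene that rose. That gene was Mmut, the mitochondrial methylmalonyl-CoA mutase that feeds the breakdown products of some amino acids and fatty acids into the citric acid cycle. Mmut had 80.4, 90.1 and 84.6 CPM in knockout tissue, against 53.8, 52.7 and 51.7 CPM in wild-type tissue. The groups were far apart relative to their spread, and Mmut rose by 0.69 ± 0.07 (edgeR adjusted p = 0.0398). The size of the difference was 0.64 to 0.73 in the 6 fits that left out 1 library each, yet in none of these did the adjusted p stay under 0.05 (0.0572 to 0.347). Mmut stood at 0.74 without both libraries numbered 1 and 0.65 without both numbered 2 (edgeR adjusted p = 0.0823 and 0.21). At an unadjusted p under 0.05 (edgeR), 656 genes were higher (4.5%) and 898 lower (6.16%) in knockout tissue. These shares are the background for the list counts below from the fit on all 6 libraries. Counts without 1 library or 1 numbered pair have other backgrounds. Their lower share ran from 2.73% (without wild-type library 3) to 8.72% (without both libraries numbered 1). Their higher share ran from 2.07% (without wild-type library 3) to 6.32% (without wild-type library 1). Part of a change in such a count can therefore be shared with all genes.

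Several genes with small p did not pass the adjustment, among them Glo1 and Nnt. Glo1, the glyoxalase that detoxifies methylglyoxal, had 239, 179 and 251 CPM in knockout tissue, against 113, 104 and 108 CPM in wild-type tissue. All knockout libraries lay above all wild-type ones, with a difference of 1.04 ± 0.12 (edgeR adjusted p = 0.129). Glo1 was called when knockout library 2 was left out (1.17 ± 0.08, edgeR adjusted p = 0.00643). It was not called when any other library was left out, with differences of 0.95 to 1.08 (edgeR adjusted p = 0.123 to 0.851). Nnt, the mitochondrial transhydrogenase that makes NADPH and is disrupted in the C57BL/6J substrain, had 20.7, 21.4 and 22.5 CPM in knockout tissue, against 40.5, 41.0 and 29.9 CPM in wild-type tissue. Here the groups did not overlap either, and the difference was -0.79 ± 0.13 (edgeR adjusted p = 0.231). Of 5 tested genes reported to differ between C57BL/6 substrains, Nnt was the 1 with an unadjusted p under 0.05, and whether the substrain differed between the groups was not tested. The other genes with the smallest p were the mitochondrial ribosomal protein gene Mrps10 (0.58 ± 0.09), the secreted protein gene Scube3 (1.19 ± 0.20), the calcium-binding protein gene Necab2 (0.89 ± 0.16) and Pcp4l1 (0.49 ± 0.10) on the higher side. On the lower side stood the death receptor gene Tnfrsf21 (-0.47 ± 0.07) and the zinc finger gene Zfp563 (-0.51 ± 0.09), beside the microglial genes Clec7a and Cst7 described below. In a fit of all regions with 17 libraries, 6 of 15432 genes were called (0.0389%), among them Trem2, Mmut, Glo1 (adjusted p = 0.0471), Nnt (0.0251) and Clec7a (0.0251).

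**Figure D2:**
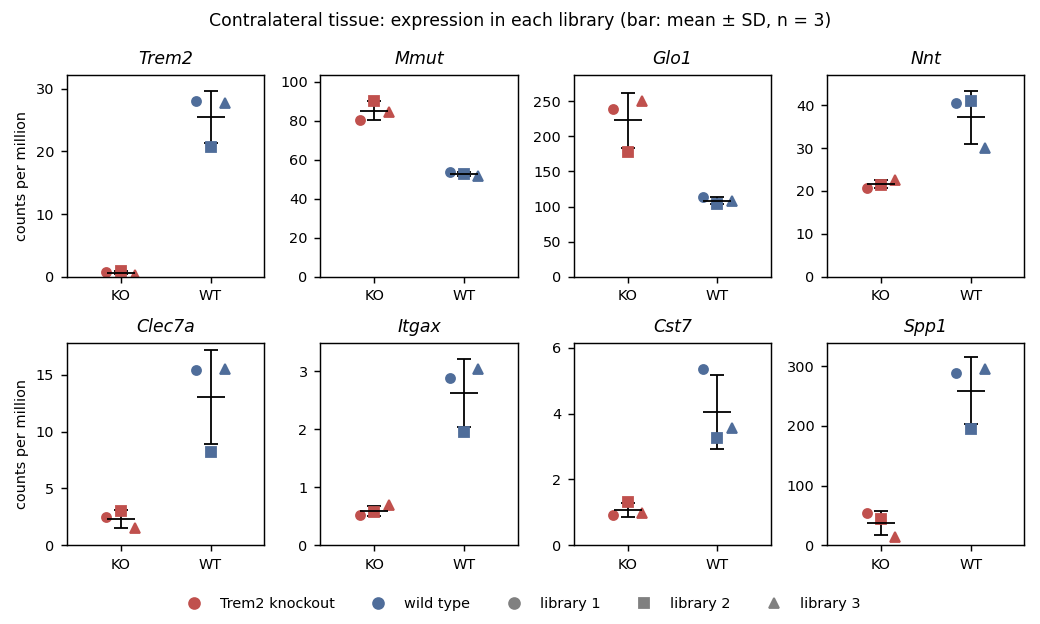
CPM of 8 genes (vertical axes, each starting at 0) in the contralateral libraries of Trem2-knockout mice (left in each panel) and wild-type mice (right), with bars for the mean ± SD (n = 3 each). In each panel the knockout and wild-type libraries do not overlap, and of the 8 genes Trem2 and Mmut passed the adjusted test.

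Genes near Trem2 on chromosome 17 were counted separately. Of 148 tested genes within 10 Mb of Trem2, Trem2 itself left out, 33 had an unadjusted p under 0.05 (22.3%), 13 higher and 20 lower in knockout tissue, against 69 of 551 on the rest of the chromosome (12.5%) and 1437 of 13809 elsewhere (10.4%). The difference between these shares was not tested. Mmut was the 1 called gene among the neighbours, at 78 tested genes from Trem2. Glo1 lay farther out on the same side, at 242 tested genes from Trem2, as did Scube3 at 274 and Zfp563 at 211, while Mrps10 lay at 14 and Tnfrsf21 at 73. Tnfrsf21 had 68.4, 67.8 and 62.9 CPM in knockout tissue, against 91.1, 90.0 and 94.3 CPM in wild-type tissue, groups that did not overlap. Treml2, the TREM family gene next to Trem2, had 0.700, 1.38 and 0.747 CPM in knockout tissue, against 2.27, 1.48 and 2.04 CPM in wild-type tissue, a difference of -1.03 ± 0.35 (edgeR adjusted p = 0.434). The class I histocompatibility gene H2-T23, at 96 tested genes from Trem2 and a member of a family of near-identical genes whose reads may be split, stood at -0.86 ± 0.18 (edgeR adjusted p = 0.404) and was called by DESeq2. Sequence that the knockout may carry around the targeted locus cannot be told apart from the loss of Trem2 in these libraries.

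**Figure D3:**
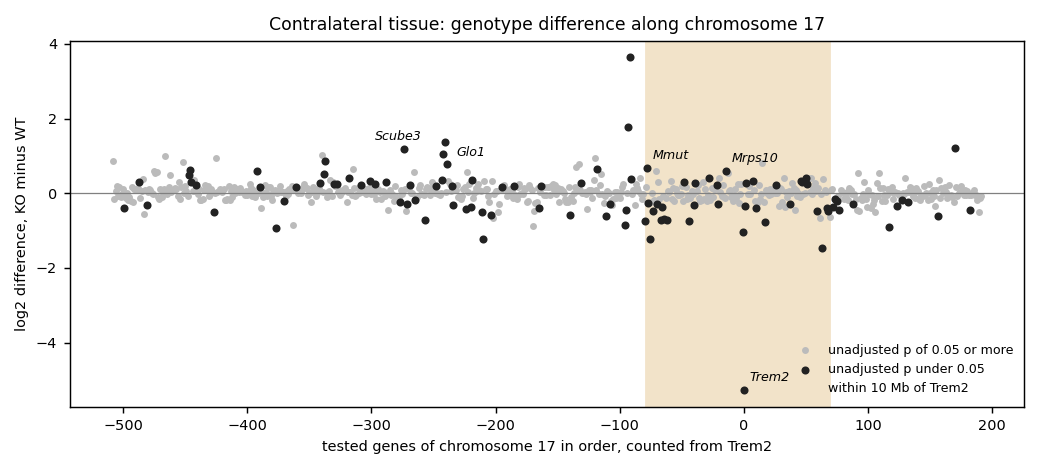
Log2 difference of knockout minus wild type in contralateral tissue (vertical axis) for each tested gene of chromosome 17 in its order along the chromosome, counted from Trem2 at 0 (horizontal axis), with genes of an unadjusted p under 0.05 in black and the stretch within 10 Mb of Trem2 shaded. Trem2 stands at -5.27, Mmut at 0.69 and Glo1 at 1.04.

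Disease-associated microglia genes had the highest share of members lower in knockout tissue at an unadjusted p under 0.05 among the 38 lists, though not the highest share below 0 or without overlap. None of the 25 was called, 15 were lower at an unadjusted p under 0.05 (60%, against 6.16% of all genes tested) and 0 were higher, and 23 lay below 0 (all genes, 48.5%). Their median log2 difference was -0.67, against 0.0065 over all genes. The knockout and wild-type libraries did not overlap, with knockout lower, in 11 of the 25 (all genes, 8.61%). In bulk tissue, fewer cells of a type and less RNA per cell cannot be told apart.

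Clec7a, a receptor for fungal glucans that marks this state, had 2.51, 3.00 and 1.49 CPM in knockout tissue, against 15.4, 8.25 and 15.5 CPM in wild-type tissue. Every knockout library lay below every wild-type one, and the difference was -2.48 ± 0.32 (edgeR adjusted p = 0.182). Itgax, the integrin subunit CD11c, had 0.525, 0.577 and 0.689 CPM in knockout tissue, from 9 to 12 counts, against 2.90, 1.96 and 3.03 CPM in wild-type tissue, from 33 to 52 counts. The groups did not overlap, at -2.13 ± 0.30 (adjusted p = 0.182). Cst7, which encodes the lysosomal protease inhibitor cystatin F, had 0.933, 1.33 and 0.977 CPM in knockout tissue, against 5.34, 3.26 and 3.56 CPM in wild-type tissue. Again no library of one genotype fell among those of the other, at -1.90 ± 0.29 (adjusted p = 0.231). Spp1, the secreted matrix cytokine osteopontin, had 53.6, 43.8 and 14.2 CPM in knockout tissue, against 288, 194 and 295 CPM in wild-type tissue. Its difference of -2.80 ± 0.52 was the most negative of the list (adjusted p = 0.404), with knockout library 3 below the other knockout libraries. Wild-type library 2 was the lowest wild-type library for all 4 of these genes, and it was also the wild-type library with the most choroid plexus RNA. Knockout library 2 had more of that RNA still (summed markers 4238 against 745 CPM). It was the highest knockout library for Clec7a and Cst7 and the middle one for Itgax and Spp1. A link between the 2 was not tested.

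The RefSeq promoter windows of Clec7a, Itgax and Cst7, the listed genes with the smallest p, are printed because the libraries of the genotypes did not overlap in any of these 3 genes. Each spans 250 bases before to 50 bases after the start of the transcript in build GRCm38.p6, 5′ to 3′ on the gene's strand. Capitals mark GGAAGT, a core bound by ETS factors such as the microglial regulator PU.1, or its reverse complement ACTTCC. The motif was chosen after the values were seen and stands in 23.8% of the 32851 promoter windows. For Clec7a (chr6:129472730-129473029, minus strand) the window, 1 of 2 in the table, holds 0 matches, as does the other. For Itgax (chr7:128129300-128129599, plus strand) it holds 2, 1 on each strand, and for Cst7 (chr2:150570165-150570464, plus strand) it holds 1. A match is a description of these letters and not a bound site.
Clec7a: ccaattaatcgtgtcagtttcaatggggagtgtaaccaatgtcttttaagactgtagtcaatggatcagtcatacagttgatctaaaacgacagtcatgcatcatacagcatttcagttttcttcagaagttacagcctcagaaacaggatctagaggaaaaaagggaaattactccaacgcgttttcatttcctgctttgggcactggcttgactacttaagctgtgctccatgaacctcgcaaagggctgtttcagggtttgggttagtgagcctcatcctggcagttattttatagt
Itgax: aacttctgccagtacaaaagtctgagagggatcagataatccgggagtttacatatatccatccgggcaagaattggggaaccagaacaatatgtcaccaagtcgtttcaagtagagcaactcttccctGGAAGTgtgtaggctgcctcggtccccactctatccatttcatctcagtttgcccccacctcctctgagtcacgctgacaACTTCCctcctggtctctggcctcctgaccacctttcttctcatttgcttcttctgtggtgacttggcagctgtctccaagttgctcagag
Cst7: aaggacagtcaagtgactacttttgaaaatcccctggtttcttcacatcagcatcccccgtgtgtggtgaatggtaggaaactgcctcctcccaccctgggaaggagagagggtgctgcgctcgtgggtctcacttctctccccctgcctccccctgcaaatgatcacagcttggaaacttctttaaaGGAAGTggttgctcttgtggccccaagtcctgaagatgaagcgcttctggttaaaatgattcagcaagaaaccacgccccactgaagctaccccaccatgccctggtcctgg

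Other members of the disease-associated list gave unequal values. The growth factor gene Igf1 had 9.27, 9.29 and 7.87 CPM in knockout tissue, against 15.7, 12.4 and 13.9 CPM in wild-type tissue, at -0.67 ± 0.13. The lysosomal protease gene Ctsd had 545, 589 and 374 CPM in knockout tissue, against 1010.3, 682 and 1074 CPM in wild-type tissue, at -0.88 ± 0.22. Neither pair of groups overlapped, and neither gene passed the test (edgeR adjusted p = 0.328 and 0.404). Apoe, the lipoprotein that TREM2 binds and the most abundant gene of the list, stood at -0.05 ± 0.11, the lipase gene Lpl at -0.29 ± 0.14 and the receptor tyrosine kinase gene Axl at 0.10 ± 0.09, with overlapping groups. Gpnmb and Lgals3 had wide errors, at -1.74 ± 0.70 and -1.91 ± 0.69, and their knockout library 2 (30.7 and 3.40 CPM) lay above wild-type library 2 (28.1 and 2.61 CPM). Left out 1 at a time, the libraries moved the count of members lower at an unadjusted p under 0.05 between 11 and 21 of 25. It was 19 without both libraries numbered 2 and 8 without both numbered 1, with medians of -0.84 and -0.61, so the median was negative in each of these fits. DESeq2, an alternative count test, called 87 of 18068 genes in the same 6 libraries, 22 higher and 65 lower. Of the 25 genes of this list it called 8 (Clec7a, Cst7, Spp1, Itgax, Ctsd, Tyrobp, Ctsz and Igf1), all lower in knockout tissue.

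Homeostatic microglia genes had a median nearer to 0. Of 20 tested, Trem2 was the 1 called, 3 others were lower at an unadjusted p under 0.05 and 0 were higher, and that median was -0.09. P2ry12, the ADP receptor of resting microglia, had 44.7, 53.9 and 48.5 CPM in knockout tissue, against 43.9, 44.7 and 43.5 CPM in wild-type tissue, at 0.15 ± 0.08. Tmem119 had 36.9, 30.4 and 30.9 CPM in knockout tissue, against 34.1, 34.7 and 37.1 CPM in wild-type tissue, at -0.11 ± 0.09. The fractalkine receptor Cx3cr1 stood at -0.10 ± 0.13. For all 3 of these genes the libraries of the genotypes overlapped. Trem2 included, the count of lower genes was 7 without knockout library 1 and 8 without both libraries numbered 1. The receptor gene Csf1r, on which microglial survival depends, stood at -0.27 ± 0.09 and Fcrls at -0.52 ± 0.18, both with an unadjusted p under 0.05.

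**Figure D4:**
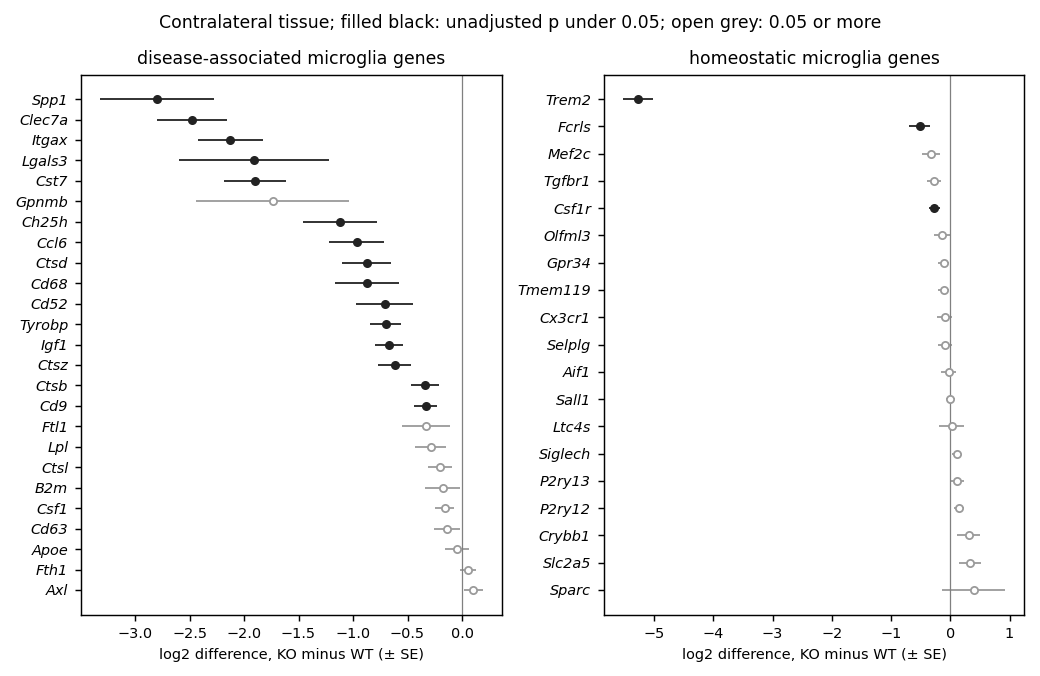
Log2 difference of knockout minus wild type ± SE in contralateral tissue (horizontal axes, with different ranges) for the 25 disease-associated and 19 of the 20 homeostatic microglia genes, filled where the unadjusted p was under 0.05. Spp1, Clec7a, Itgax and Cst7 lie between -2.80 and -1.90, while most homeostatic genes other than Trem2 lie near 0.

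Genes of the TREM2 receptor complex and its signalling were lower in part. Of 22 listed 16 passed the filter on low counts, 8 were lower at an unadjusted p under 0.05, Trem2 and Treml2 included, 0 were higher, and Trem2 alone was called. The count of lower genes was 5 without library 1 of either genotype or both, 2 without knockout library 3 and 3 without wild-type library 3. Tyrobp, the adaptor, had 20.8, 19.5 and 16.4 CPM in knockout tissue, against 32.0, 24.9 and 35.2 CPM in wild-type tissue. The groups did not overlap, at -0.70 ± 0.14 (edgeR adjusted p = 0.398). The inositol phosphatase gene Inpp5d, which dampens this pathway, stood at -0.29 ± 0.10, and the kinase gene Syk at -0.42 ± 0.18. Plcg2, the phospholipase downstream of SYK, stood at -0.15 ± 0.24 with overlapping groups.

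The classical complement genes C1qa and C1qb, which microglia make, stood at -0.59 ± 0.16 and -0.50 ± 0.14. C1qa had 97.5, 85.3 and 71.0 CPM in knockout tissue, against 139, 101 and 141 CPM in wild-type tissue, without overlap. Of 15 complement genes 7 were lower at an unadjusted p under 0.05 and 0 higher, with the complement receptor C5ar1 at -1.18 ± 0.28 and the integrin subunit Itgb2 at -0.70 ± 0.18, and none was called. Of 25 lysosome and phagocytosis genes, some of them shared with the disease-associated list, 12 were lower and 0 higher, with the Fc receptor Fcgr3 at -0.43 ± 0.10 and the cathepsin gene Ctsz at -0.62 ± 0.15. Of 20 lipid handling genes 6 were lower and 1 higher, and the scavenger receptor Msr1 (-1.82 ± 0.44) and the lipid droplet coat gene Plin2 (-1.03 ± 0.28) had the smallest p. The median of this list was -0.09. Without knockout library 3 the counts of lower genes were 7 (lysosome) and 2 (lipid), without wild-type library 3 they were 6 and 3, and without both libraries numbered 1 they were 7 and 2. None of these genes passed the adjustment over all genes (edgeR adjusted p = 0.404 for each of the named ones), while DESeq2 called C1qa, Ctsd, Ctsz, Plin2 and Msr1.

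Markers of border-associated macrophages, which sit in the meninges, around vessels and in the choroid plexus, lay below 0 in 10 of 10 tested, with a median of -0.65. Of these 3 had an unadjusted p under 0.05 (edgeR, 30%, all genes 6.16%). That count was 2 without knockout library 2 or wild-type library 1, and 6 without wild-type library 2. It was 3 or 4 without any other single library or either numbered pair. Stab1, a scavenger receptor, had 25.8, 21.8 and 16.6 CPM in knockout tissue, against 40.8, 33.2 and 43.3 CPM in wild-type tissue, at -0.87 ± 0.17 (edgeR adjusted p = 0.328). Its groups did not overlap, and DESeq2 called it. Lyve1, the hyaluronan receptor, stood at -1.12 ± 0.33 and the mannose receptor Mrc1 at -0.71 ± 0.30. The list summed to 50.8, 36.2 and 32.6 CPM in knockout tissue, against 75.4, 52.9 and 77.2 CPM in wild-type tissue. Its part in the values of the microglial lists, some of whose genes such macrophages also express, was not tested.

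Interferon response genes lay on the other side of 0 but differed among libraries. Of 21 tested 20 lay above 0, with a median of 0.37, 2 were higher at an unadjusted p under 0.05 (9.52%, against 4.5% of all genes) and none was called. Rtp4 had 5.07, 4.79 and 7.41 CPM in knockout tissue, against 4.54, 3.14 and 3.91 CPM in wild-type tissue, at 0.57 ± 0.23. The groups did not overlap, and knockout library 3 was the highest. The count rested on single libraries: it was 0 without knockout library 3 (median 0.03) or wild-type library 2 and 1 without wild-type library 3, but 7 without knockout library 1, 8 without wild-type library 1 and 11 without both (median 0.70).

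Reactive astrocyte genes were described because the opposite hemisphere held the lesion. Of 21 tested 6 were lower at an unadjusted p under 0.05 and 0 higher, with a median of -0.14, and 3 were lower without knockout library 2 or 3 and 2 without wild-type library 3. Gfap, the intermediate filament of astrocytes, had 849, 716 and 842 CPM in knockout tissue, against 915, 771 and 962 CPM in wild-type tissue, at -0.14 ± 0.11. These groups overlapped. The oncostatin M receptor Osmr stood at -0.51 ± 0.15, the hyaluronan receptor Cd44 at -0.58 ± 0.19 and the crosslinking enzyme Tgm1 at -1.63 ± 0.43. Brain endothelium markers were lower in 4 of 15 at an unadjusted p under 0.05, with the glucose transporter Slc2a1 at -0.37 ± 0.12 and the VEGF receptor Flt1 at -0.30 ± 0.10. That count was 8 without knockout library 1, 1 without knockout library 2 or 3, 2 without wild-type library 3 or both numbered 2, and 7 without both numbered 1.

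Genes that vary with neuronal activity, time of day or tissue handling had values on both sides of 0, and none was called by edgeR, whereas DESeq2 called Egr1, Ccn1 and Btg2. Of 30 immediate early genes 2 were lower and 3 higher at an unadjusted p under 0.05. Egr1 had 283, 269 and 314 CPM in knockout tissue, against 339, 495 and 471 CPM in wild-type tissue, at -0.59 ± 0.14, whereas Ccn1 stood at 0.92 ± 0.20 and Btg2 at 0.75 ± 0.20. The count of lower genes was 4 without knockout library 2 and 7 without wild-type library 1 or both numbered 1, and the counts were 1 lower and 6 higher without wild-type library 2 and 1 and 7 without both numbered 2. Of 19 clock genes 4 were lower and 2 higher, with the period genes Per1 and Per2 at -0.27 ± 0.09 and -0.48 ± 0.16 and the clock output gene Dbp at 0.46 ± 0.16. The count of lower clock genes was 2 without knockout library 1 or both numbered 2 and 1 without wild-type library 3, and that of higher ones 0 without library 3 of either genotype and 1 without knockout library 2 or either numbered pair. The time of day at which tissue was taken was not tested. All 24 cytosolic ribosome genes tested lay above 0, with a median of 0.14 and 4 at an unadjusted p under 0.05, and 20 of 21 respiratory chain genes did so, with a median of 0.11 and 6 at an unadjusted p under 0.05. The ribosome count was 12 without knockout library 2, 2 without knockout library 1 and 1 without knockout library 3, wild-type library 2, wild-type library 3 or both libraries numbered 1, and the respiratory chain count was 3 without both numbered 2. Sdhb, a subunit of complex II, stood at 0.25 ± 0.07 and the ribosomal protein gene Rps18, itself on chromosome 17, at 0.20 ± 0.07.

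The same genes were then read in peri-infarct tissue and infarct core, which are separate libraries though perhaps from the same animals. Marker levels were unequal in peri-infarct tissue too. Ttr had 491, 9.16 and 1955 CPM (scaled over 18 libraries) in its knockout libraries, against 55.1, 24.7 and 14.1 CPM in wild-type ones. At an unadjusted p under 0.05 (edgeR, all genes 5.76%), 11 of 17 choroid plexus, 14 of 18 cilium and 1 of 19 striatal genes were higher and 0 lower. Their part in the regional values was not tested. At the lesion border 2 of 14858 genes were called (0.0135%). The core gave 0 calls of 14862 by edgeR, with 233 at an unadjusted p under 0.05 (1.57%), and 1 of 15037 (0.00665%) without wild-type core library 3, which stood apart (15.5% of its counts in 10 genes, against 3.27% to 5.38% elsewhere). Trem2 was the gene called there without that library (-4.97 ± 0.20) and 1 of the 2 at the border (-5.16 ± 0.20). Mmut stood at 0.61 ± 0.09 at the border and 0.60 ± 0.09 in the core without that library, Glo1 at 0.99 ± 0.13 and 1.01 ± 0.21, and Nnt at -0.80 ± 0.10 and -0.69 ± 0.11. None of these 3 genes passed the test in either region. Their contralateral minus peri-infarct difference was 0.10 ± 0.11 for Mmut, 0.07 ± 0.23 for Glo1 and 0.04 ± 0.17 for Nnt (edgeR adjusted p = 1.00 for each).

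The microglial genes gave unequal values across regions. Clec7a stood at -2.48 ± 0.32 in contralateral tissue, -1.52 ± 0.24 in peri-infarct tissue and -0.55 ± 0.19 in the core without wild-type library 3. Cst7 stood at -1.90 ± 0.29, -0.98 ± 0.26 and -0.27 ± 0.20 in that order, and Itgax at -2.13 ± 0.30, -1.41 ± 0.30 and -0.28 ± 0.34. In all 3 genes the estimate was nearest to 0 in the core without that library. With that library kept, the core stood at -1.64 ± 0.69 for Clec7a, -1.00 ± 0.51 for Cst7 and -1.68 ± 0.85 for Itgax. These values lay farther from 0 than those of peri-infarct tissue, so the place of the core rested on 1 library. For Lpl the estimate was nearest to 0 in contralateral tissue, at -0.29 ± 0.14, -1.89 ± 0.25 and -1.27 ± 0.20, the core again without that library. Of the 25 disease-associated genes 18 were lower at an unadjusted p under 0.05 at the border (all genes, 5.7%) and 5 in the core without that library (all genes, 9.8%), with medians of -0.76 and -0.19. Of the 21 interferon response genes 17 were higher at the border (all genes, 5.76%) and 21 in the core without that library (all genes, 7.95%), with medians of 0.57 and 1.23, and none was called by edgeR.

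The difference between regions was itself tested in the fit with 17 libraries. Contralateral minus peri-infarct, 0 of 15432 genes passed with edgeR and 517 had an unadjusted p under 0.05 (3.35%). For contralateral minus core 0 passed, and 1475 had an unadjusted p under 0.05 (9.56%). The genotype difference in contralateral tissue minus that in the core was -1.95 ± 0.46 for Clec7a, -1.65 ± 0.44 for Cst7 and -1.87 ± 0.56 for Itgax on the log2 scale, each with an edgeR adjusted p of 0.355. For Lpl, contralateral minus peri-infarct gave 1.63 ± 0.33 (edgeR adjusted p = 1.00). A regional difference in the effect of genotype was therefore not called for any gene.

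**Figure D5:**
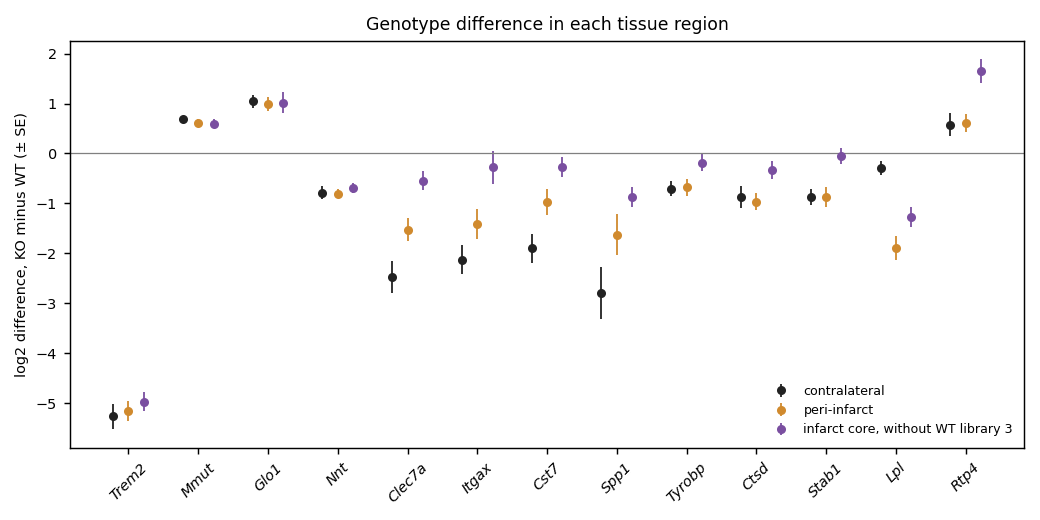
Log2 difference of knockout minus wild type ± SE (vertical axis) for 13 genes in contralateral tissue, peri-infarct tissue and the infarct core without wild-type library 3. Mmut stands between 0.60 and 0.69 and Glo1 between 0.99 and 1.04 in the 3 regions. Clec7a, Itgax and Cst7 lie farther below 0 in contralateral tissue (-2.48, -2.13 and -1.90) than in the core without that library (-0.55, -0.28 and -0.27). With that library kept, their core values, not shown, were -1.64, -1.68 and -1.00.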

How the data were processed

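Polyadenylated RNA was sequenced with an MGIEasy stLFR kit, per the labels. The authors deposited expected counts (estimated counts per gene, not always whole) and TPM values for 18922 genes. In 3678 genes (19.4%) a count was not whole, so counts were rounded, while the tests had assumed whole counts. Per the submitters' processing notes, Bowtie2, Subread, HISAT2 2.0.4 and build GRCm39 were used, in roles not given. Estimated counts can split reads among near-identical genes. No use of strand is stated.

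The 6 contralateral libraries entered an edgeR 4.0.16 fit run in R 4.3.3 (TMM, filterByExpr, robust quasi-likelihood, 4 residual degrees of freedom), with Benjamini-Hochberg adjustment over 14578 genes and calls at an adjusted p under 0.05. Values after ± are standard errors unless marked SD, and CPM are scaled by TMM. Gene order, distance from Trem2 and promoter windows came from RefSeq tables of GRCm38.p6, another build (99.53% of genes matched), and no coordinates were compared between builds. Alternatives used DESeq2 1.42.0 and limma 3.58.1. The deposited TPM values entered alternatives only, as log2(TPM + 1) or log2(TPM + 0.1). The edgeR step was tested on simulated data, where the share of false calls lay above the nominal threshold in each of 10 draws.

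Members and gene lists were chosen with earlier results of these data known. Named genes were Trem2, called genes, the 5 smallest p in each direction, and, from each list described, up to 4 members of smallest p, with the 6 most abundant for choroid plexus and striatum. Others, such as Spp1, Drd2, Adora2a, P2ry12, Tmem119, Apoe, Lpl, Axl, Gpnmb, Lgals3, Syk, Plcg2, Gfap, Cx3cr1 and Slc17a7, were chosen after their values were seen. Some genes that the rule names are not reported here.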

Additional observations from a re-analysis of the deposited data

How the results depend on the processing

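The count of 2 called genes became 87 with DESeq2 (22 higher, 65 lower), 6 in the fit with 17 libraries, and 1 with RLE size factors, with all 18 libraries and with either TPM fit. It was 2 with no filter or a stricter one and 3 with limma-voom. With the replicate number as a block it was 5 (4 higher, 1 lower). That block rests on the number alone, since same-numbered libraries of the genotypes deviated together at correlations of 0.353, 0.365 and -0.161. Without 1 library the count ranged from 1 to 2. In fits added after the data were seen it was 3 without both libraries numbered 2 (Trem2, Clec7a and Glo1) and 0 without both numbered 1, where 2123 genes had an unadjusted p under 0.05 and Trem2 stood at -5.24 (adjusted p = 0.071). Trem2 kept its call in all other alternatives, at -5.72 to -4.71. Called neighbours of Trem2 numbered 1, against 7 with DESeq2, 0 with RLE size factors, 18 libraries, the TPM fits and both added fits, and 0 in every fit without 1 library. Of 104 other named genes over 18 alternatives, 1807 results kept direction and side of the threshold, 31 gained and 12 lost a call, and 11 changed sign.

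The sign changes were all in tissue markers. Over the fits without 1 library the choroid plexus median ranged from -0.28 to 3.28, Ttr from -2.31 to 6.99, Enpp2 from -0.49 to 1.37, Kl from -0.31 to 3.34 and Cab39l from -0.040 to 0.37, each lowest without knockout library 2. Without both libraries numbered 2, Enpp2 was -0.35, Cab39l -0.049 and Col8a1 -0.013. Scn4b ranged from -0.11 without knockout library 1 to 0.34, with -0.055 without wild-type library 1, and was -0.25 without both, where Pde10a was -0.013. The cause was not tested. Low genes such as Itgax rest on few counts.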

Other observations

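Cell cycle genes lay below 0 in 16 of 18 tested, with a median of -0.37. Mki67, the proliferation antigen, had 4.08, 6.12 and 4.71 CPM in knockout tissue, against 4.82, 9.97 and 8.63 CPM in wild-type tissue, at -0.65 ± 0.28, and the groups overlapped. None of the 18 was called by edgeR or DESeq2, and 3 were lower at an unadjusted p under 0.05 (edgeR), against 1 without knockout library 1 or 3 and 0 without wild-type library 2, wild-type library 3 or both numbered 2. Of 18 glucocorticoid and stress response genes 4 were lower at an unadjusted p under 0.05 and 16 lay below 0, with the glucocorticoid-induced leucine zipper gene Tsc22d3 at -0.41 ± 0.10. That count of 4 became 1 without library 3 of either genotype, 2 without wild-type library 2 or both libraries numbered 2, 9 without wild-type library 1 and 11 without both libraries numbered 1. Cholesterol synthesis genes had a median of -0.05.

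Mmp12, a macrophage elastase chosen after its values were seen, had 1, 2 and 0 counts in knockout tissue, against 37, 13 and 27 counts in wild-type tissue. The groups did not overlap, and Mmp12 was called by DESeq2 but not by edgeR (adjusted p = 0.231).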
